A study of Mus musculus with 9 samples.

Results

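The autophagy machinery is the set of proteins that builds a double membrane around cytoplasmic cargo and delivers it to the lysosome. A list of 41 mouse genes was taken: the ULK1 kinase complex, the class III phosphatidylinositol 3-kinase complexes, the proteins that supply membrane, the conjugation enzymes, the ATG4 proteases, the ATG8 family, cargo receptors, mitophagy receptors and fusion factors. A gene was kept if its mean over all 9 libraries was at least 1 FPKM (a level corrected for transcript length and for the depth of a library), and 40 of the 41 were kept, out of 24318 genes in the deposited tables. The gene that missed was Wipi1, a reader of phosphatidylinositol 3-phosphate, with a mean of 0.391 FPKM. The values are from polyA-selected RNA-seq of a mouse cell line that received brain-derived extracellular vesicles or vehicle, with 3 libraries in each of 3 groups.

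The groups were Vehicle, CON-BDEV (library names EV Saline) and SE-BDEV (library names EV Pilo), where BDEV stands for brain-derived extracellular vesicles. No genotype, dose, exposure time or donor animal is given in the sources used here, and nothing says whether the 3 libraries of a group came from separate cultures. The p-values therefore rest on the spread among libraries of a group, and that spread may be technical. The series is described as using BV2, an immortalised microglial line of the mouse, but all 9 samples carry the label N2a, which is a neuroblastoma line. Of 16 microglia and macrophage markers, 14 had a mean of at least 1 FPKM, with Tyrobp at 711.9 and Cd68 at 740.2 FPKM, while Cx3cr1 (0.122 FPKM) and P2ry12 (0.0142 FPKM) were near 0. Of 16 neuroblastoma and neuronal markers, 3 had at least 1 FPKM (Uchl1, Elavl4 and Gata3) and 6 were at 0 in every library, including Th, Dbh and Mycn. The libraries are therefore described by their group names, and a single line limits what they stand for.

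Autophagy starts when the ULK1 kinase complex is released from nutrient signalling and switches on a class III PI3-kinase, whose lipid product recruits the membrane-supply and conjugation proteins. The conjugation enzymes attach ATG8 proteins (the LC3 and GABARAP subfamilies) to the growing membrane, where cargo receptors bind them. Tethers and SNARE proteins then fuse the closed autophagosome with a lysosome. In microglia the pathway is known for its part in the breakdown of engulfed and aggregated material and in restraining inflammatory signalling.

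Transcript levels of the members spread over a wide range but differed little between libraries. The members' summed level was 1201 to 1288 FPKM per library, 1228 ± 9.89 in Vehicle, 1256 ± 28.5 in CON-BDEV and 1229 ± 25.7 in SE-BDEV (SD, n = 3 each). The median coefficient of variation over the 9 libraries was 5.6% for the 40 members and 6.43% for the 10534 genes of at least 1 FPKM. Among genes of at least 10 FPKM it was 5.49% for 30 members and 5.41% for all 6816 genes. At like levels the members were thus no steadier than other genes. The files hold no read counts. From the size of the smallest steps in the values, depth was estimated at 28760000 to 33280000 fragments per library, at which 57.5 to 66.6 fragments stand behind 1 FPKM in a transcript of 2 kb. The plot of levels by role shows each member in each library.

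**Figure D1:**
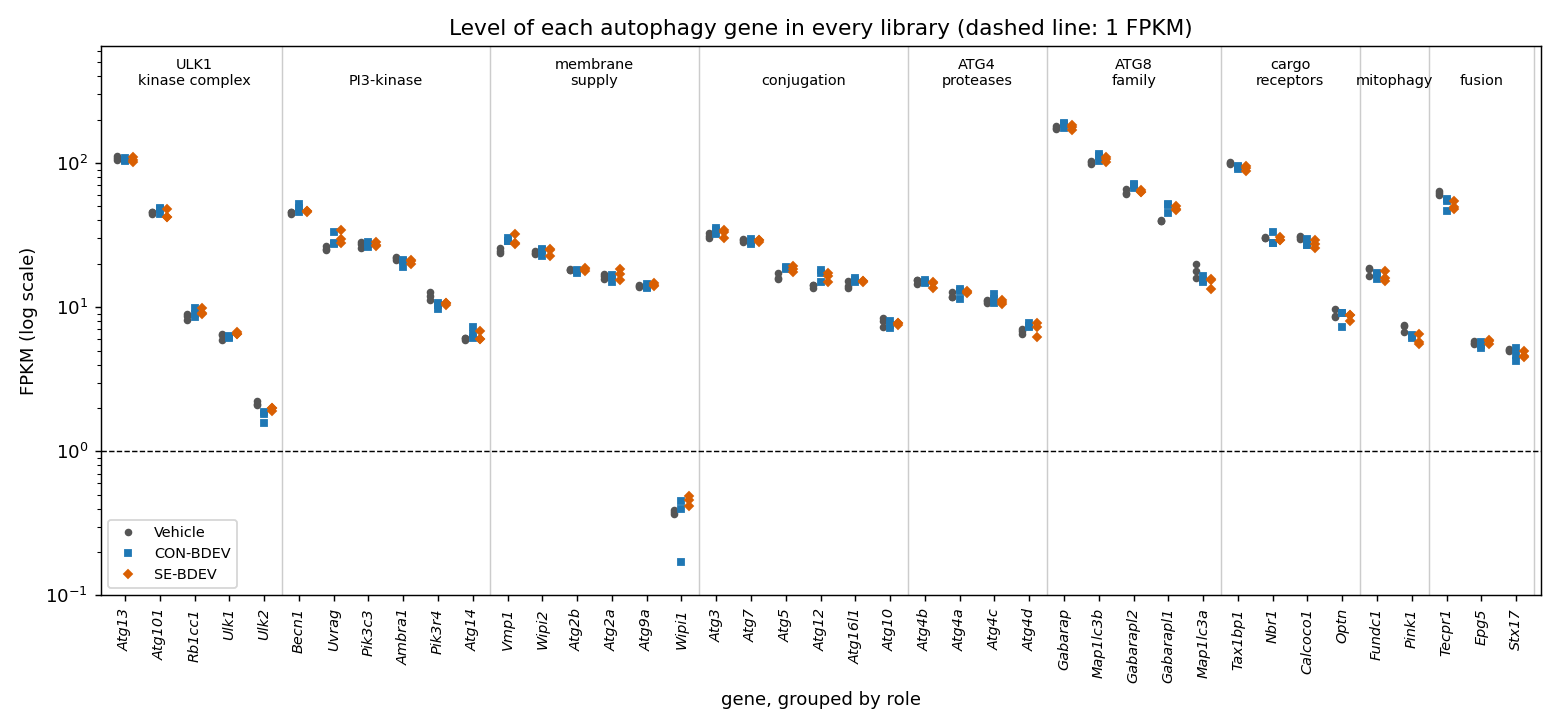
Level of each of the 41 listed genes in each of the 9 libraries (FPKM, log axis), grouped by role, with a mark per library, a colour and shape per group and a dashed line at 1 FPKM. Wipi1 lies below the line, Gabarap lies highest with a mean of 178.6 FPKM and Ulk2 lowest of the 40 kept with 1.96 FPKM, and the marks of a gene lie close together beside the distance between genes.

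In the ULK1 kinase complex the scaffold Atg13 was by far the highest transcript and the kinases the lowest. Atg13 measured 104.5, 111.3 and 108.9 FPKM in Vehicle, 103.3, 105.2 and 109.2 FPKM in CON-BDEV, and 110.1, 101.9 and 104.3 FPKM in SE-BDEV. The 3 groups overlapped. Per transcript length, Atg13 stood 16.8 times above Ulk1 by the means over 9 libraries (15.1 to 18.5 by library), and Ulk1 stood 3.24 times above its paralog Ulk2.

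Among the class III PI3-kinase genes Becn1, the core regulatory subunit, was highest. It measured 44.3, 45.7 and 45.7 FPKM in Vehicle, 45.8, 48.4 and 52.1 FPKM in CON-BDEV, and 46.3, 46.8 and 45.6 FPKM in SE-BDEV. The CON-BDEV libraries lay above all Vehicle libraries by a narrow margin, and the SE-BDEV libraries overlapped them. Atg14 and Uvrag define alternative complexes with Becn1, the former on forming autophagosomes and the latter on later endosomal and autophagic membranes. Uvrag stood 4.50 times above Atg14 over the 9 libraries (4.09 to 5.64). Among the genes of membrane supply Vmp1, an endoplasmic reticulum protein that scrambles lipids, was highest with a mean of 27.7 FPKM, and Wipi2 stood 61.8 times above Wipi1 by their means (46.2 to 150 by library).

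The conjugation enzymes and ATG4 proteases were of middling level. Atg3, which transfers ATG8 proteins to lipid, measured 31.4, 30.3 and 32.9 FPKM in Vehicle, 31.9, 35.5 and 34.3 FPKM in CON-BDEV, and 34.3, 33.1 and 29.98 FPKM in SE-BDEV, and the groups overlapped. Atg4b, the main protease that trims ATG8 proteins before conjugation, measured 15.5, 15.4 and 14.5 FPKM in Vehicle, 14.7, 15.0 and 15.4 FPKM in CON-BDEV, and 13.7, 14.8 and 15.0 FPKM in SE-BDEV, again with overlap. The other ATG4 genes had means of 7.12 FPKM (Atg4d) or more, and none was at 0. Atg4d shares its listed locus with Kri1 (35.9 FPKM) and Becn1 with Cntd1 (3.94 FPKM), and the handling of strand in counting is not given in the sources used here, so reads of these neighbours may not be fully separated.

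Of the 40 members the highest transcript was Gabarap, of the ATG8 family. Gabarap measured 172.0, 173.9 and 179.7 FPKM in Vehicle, 189.2, 175.5 and 185.3 FPKM in CON-BDEV, and 178.8, 168.9 and 184.3 FPKM in SE-BDEV, so its groups overlapped. By their means over the 9 libraries Gabarap took 43.3% of the family's summed FPKM, Map1lc3b 25.7%, Gabarapl2 15.8%, Gabarapl1 11.2% and Map1lc3a 3.92%. Map1lc3b, the LC3 form most often followed as a marker of autophagosomes, stood 6.60 times above Map1lc3a (5.09 to 7.64).

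Of the cargo receptors Tax1bp1 was highest. It measured 99.3, 98.0 and 101 FPKM in Vehicle, 90.6, 95.4 and 94.5 FPKM in CON-BDEV, and 95.4, 92.1 and 87.9 FPKM in SE-BDEV. All vesicle libraries lay below all Vehicle libraries, and the difference was -0.09 on the log2 scale in CON-BDEV (adjusted p = 0.213) and -0.12 in SE-BDEV (adjusted p = 0.0937), neither past the threshold of limma's test described below. The mitophagy receptor Fundc1, in the outer mitochondrial membrane, measured 16.5, 18.3 and 18.7 FPKM in Vehicle, 17.1, 17.3 and 15.6 FPKM in CON-BDEV, and 17.8, 15.3 and 16.0 FPKM in SE-BDEV, with overlap between groups. Among the fusion genes Tecpr1, a lysosomal tether that binds the ATG12 and ATG5 conjugate, stood 11.5 times above the SNARE Stx17.

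Against Vehicle, CON-BDEV libraries had higher Gabarapl1, an ATG8 protein of the GABARAP subfamily, and higher Vmp1, and no member was lower past the threshold. Gabarapl1 was 1.25-fold and Vmp1 1.18-fold the Vehicle mean. Each gene of at least 1 FPKM was tested with limma on log2(FPKM + 1), and an adjusted p under 0.05 (Benjamini and Hochberg over 10535 genes) counted as a change. The 2 of 40 members that rose are 5% of the members, beside 5.67% of all genes tested that changed (3.81% higher and 1.86% lower). With quantile normalization the split over all genes was less uneven, with 301 higher of 550 changed in place of 401 of 597. In 9 members all CON-BDEV libraries lay above all Vehicle libraries and in 5 below, together 35% of members, beside 29.3% of all genes (16.6% above and 12.7% below). The members' median log2 fold change was -0.0021, beside 0.0054 over all genes tested, and 19 members had a positive and 21 a negative value. In bulk RNA a change in the cells' makeup and a change in RNA per cell cannot be told apart, and a fold change on this scale understates that of genes of low level.

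Against the same Vehicle libraries, SE-BDEV libraries had higher Gabarapl1, Vmp1 and Uvrag and lower Tecpr1 and Pink1, the kinase that marks damaged mitochondria for removal. The 5 members are 12.5% of 40, beside 11.9% of all 10535 genes tested by limma with adjusted p under 0.05 (6.76% higher and 5.14% lower). The 3 that rose measured 1.22-fold (Gabarapl1), 1.18-fold (Vmp1) and 1.19-fold (Uvrag) the Vehicle mean, and the 2 that fell measured 0.819-fold (Tecpr1) and 0.827-fold (Pink1). In 5 members all SE-BDEV libraries lay above all Vehicle libraries and in 9 below, again 35% of members, beside 32.8% of all genes (16.5% above and 16.3% below). By the q-values of the authors' deposited table, 1 member passed in CON-BDEV (Gabarapl1) and 2 in SE-BDEV (Gabarapl1 and Tecpr1), beside 4.36% and 5.33% of all genes. The median log2 fold change of the members was 0.01, beside -0.0008 over all genes. The shares of members changed were near those of all genes in both comparisons and are not a result about the pathway. As the comparisons share their Vehicle libraries, the values of a gene in both are given side by side below and are not independent of each other.

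**Figure D2:**
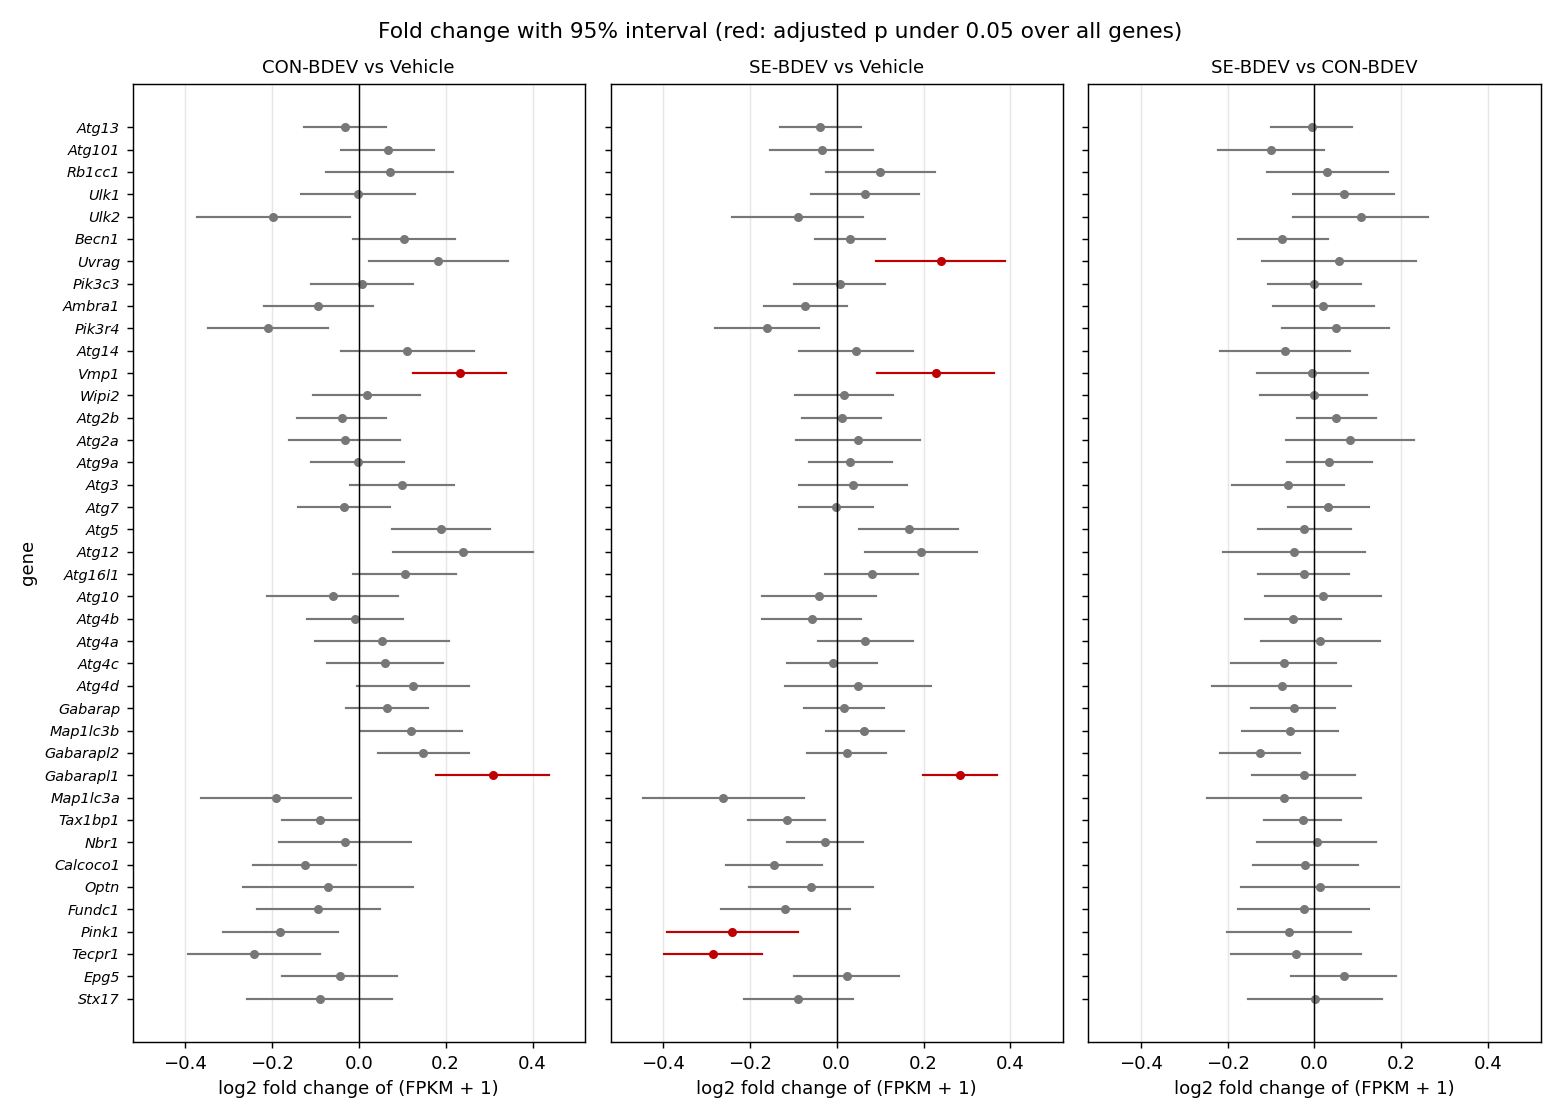
Log2 fold change of each of the 40 members (points, log2(FPKM + 1) scale) with its 95% interval (lines), for the 3 comparisons side by side, in order of role and in red where past the threshold. Against Vehicle Gabarapl1 lies highest (0.31 and 0.28) and Tecpr1 lowest (-0.24 and -0.28), and no gene is red between SE-BDEV and CON-BDEV.

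Promoter sequences of the 5 genes that changed are shown because 3 of these genes rose and 2 fell, so that a motif shared among them can be looked for. They come from RefSeq (GRCm38.p6), which holds 250 bases before to 50 after each start, and 33 of the 40 members were matched. Searched on both strands were CACGTG, the core of the element bound by TFEB and related factors, and TGACNNNGC, the core of the antioxidant response element. CACGTG was in 7.15% of all 32851 promoters and in 4 of the 39 promoters of members (10.26%). These belonged to 4 members (Atg14, Atg3, Atg5 and Atg7), none of them among the 5 genes that changed. TGACNNNGC was in 12.39% of all promoters and in 7 of the 39 promoters of members (17.95%). These belonged to 5 members (Atg13, Map1lc3b, Tax1bp1, Ulk2 and Vmp1). Of them Vmp1 alone was among the 5 genes that changed, and it held the motif at all 3 of its starts. For 2 of those starts the match is in capitals below with its flanks, 5′ to 3′ on the minus strand of chromosome 11. The windows are chr11:86683580-86683608 and chr11:86671319-86671347. On this strand the capitals read GCNNNGTCA, the reverse complement of TGACNNNGC. So does the match at the other start, which is not printed.
Vmp1, first window: ctgctgactgGCTGTGTCAgctggcggtg
Vmp1, second window: tattcataagGCACTGTCAtgcagaacat
The other 4 genes held neither motif, and 100 bases ending 40 before the start follow in lower case, on the gene's strand, from chr6:129533052-129533151 (plus), chr7:99141185-99141284 (minus), chr5:144223656-144223755 (minus) and chr4:138326337-138326436 (minus), in the order printed.
Gabarapl1: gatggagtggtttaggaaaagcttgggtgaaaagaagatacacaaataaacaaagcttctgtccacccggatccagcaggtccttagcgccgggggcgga
Uvrag: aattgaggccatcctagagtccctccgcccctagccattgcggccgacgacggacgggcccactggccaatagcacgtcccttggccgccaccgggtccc
Tecpr1: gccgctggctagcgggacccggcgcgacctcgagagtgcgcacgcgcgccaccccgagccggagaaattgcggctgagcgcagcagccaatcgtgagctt
Pink1: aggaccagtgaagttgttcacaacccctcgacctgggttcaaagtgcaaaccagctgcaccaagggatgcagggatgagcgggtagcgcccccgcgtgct
A match is a description of letters in this window, not a binding site, and the lack of a match says nothing about a factor.

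Gabarapl1 (mm9 chromosome 6, 129482202 to 129492349) measured 39.8, 39.4 and 40.5 FPKM in Vehicle, 51.5, 45.3 and 52.4 FPKM in CON-BDEV, and 47.6, 50.4 and 48.4 FPKM in SE-BDEV. Every vesicle library lay above every Vehicle library, and CON-BDEV replicate 2 was the lowest of the vesicle libraries. The log2 fold change was 0.31 (SE 0.0573) in CON-BDEV, with limma's adjusted p = 0.0200, and 0.28 (SE 0.0380) in SE-BDEV, with limma's adjusted p = 0.00208. The authors' deposited table gives q = 0.0204 and q = 0.0245. In SE-BDEV the call held in all 6 fits that left out a library. In CON-BDEV it ended without any of the 3 Vehicle libraries (adjusted p by limma 0.0881, 0.0915 and 0.0732 without replicates 1, 2 and 3) and without CON-BDEV replicate 3 (0.0775), and with no filter on low values (0.0687). The noncoding 1700101I11Rik, which shares the listed locus, was at 0 to 0.185 FPKM.

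Within the ATG8 family Gabarapl1 took 10.04 ± 0.0775% of the summed FPKM in Vehicle, 11.6 ± 0.445% in CON-BDEV and 11.9 ± 0.690% in SE-BDEV (SD, n = 3 each). The share of Map1lc3a was 4.52 ± 0.530%, 3.63 ± 0.332% and 3.60 ± 0.213% in the same order. For Map1lc3a itself the log2 fold change was -0.19 in CON-BDEV (limma's adjusted p = 0.172) and -0.26 in SE-BDEV (limma's adjusted p = 0.0727), so it did not pass in either. Map1lc3b gave 0.12 and 0.06 (adjusted p = 0.194 and 0.328) and Gabarap 0.06 and 0.02 (adjusted p = 0.382 and 0.826) by limma, and neither passed.

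**Figure D3:**
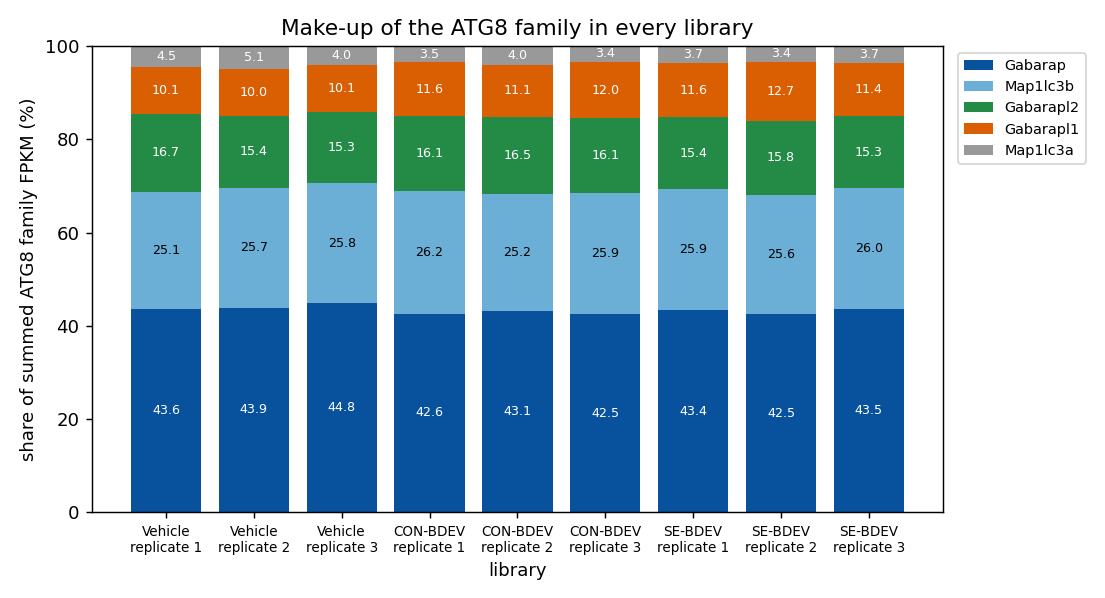
Share of the summed FPKM of the 5 ATG8 genes taken by each gene (percent), as a stacked bar for each of the 9 libraries. By group mean Gabarapl1 goes from 10.04% in Vehicle to 11.6% and 11.9% in the vesicle groups, and Gabarap stays the highest at 42.8% to 44.1%.

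Vmp1 (mm9 chromosome 11, 86397367 to 86497324) measured 23.9, 24.4 and 25.9 FPKM in Vehicle, 28.9, 28.7 and 30.1 FPKM in CON-BDEV, and 27.6, 28 and 32 FPKM in SE-BDEV. Vesicle and Vehicle libraries did not overlap. The log2 fold change was 0.23 in both comparisons, with limma's adjusted p = 0.0273 in CON-BDEV and 0.0390 in SE-BDEV, while the authors' deposited table gives q = 0.133 and q = 0.0925. The CON-BDEV call ended without Vehicle replicate 1 (adjusted p by limma 0.134), 2 (0.122) or 3 (0.0589) or CON-BDEV replicate 3 (0.0973), and with the library-name number described below as a block (0.0663) or no filter on low values (0.0625). The SE-BDEV call ended without Vehicle replicate 1 (0.142), 2 (0.119) or 3 (0.0594) or SE-BDEV replicate 2 (0.0551) or 3 (0.0561), and with the library-name block (0.0657), no filter (0.1) or no variance trend (0.0627), by limma's adjusted p. The microRNA gene Mir21a, at the same listed locus, was at 0 in every library. So were the microRNA genes at the loci of Atg5 and Pink1. Such a 0 does not show that no reads from the microRNA gene were counted as Vmp1.

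Uvrag (mm9 chromosome 7, 106035253 to 106289654) measured 25.4, 25.1 and 26.6 FPKM in Vehicle, 27.3, 27.9 and 33.0 FPKM in CON-BDEV, and 34.1, 29.8 and 27.9 FPKM in SE-BDEV. All vesicle libraries lay above Vehicle, with 1 library in each vesicle group well above the other two. Only SE-BDEV passed, with a log2 fold change of 0.24 (SE 0.0662, limma's adjusted p = 0.0466), beside 0.18 in CON-BDEV (limma's adjusted p = 0.161). The SE-BDEV call ended without Vehicle replicate 1 (adjusted p by limma 0.145), 2 (0.141) or 3 (0.0847) or SE-BDEV replicate 1 (0.0769) or 2 (0.0822). It also ended under 6 of 8 other settings: no filter (0.124), quantile normalization (0.0513), the replicate block (0.0526), no variance trend (0.0745) and all 9 libraries in 1 fit (0.0963) by limma's adjusted p, and by the authors' deposited table (q = 0.0596). Its size moved from 0.42 among libraries whose names carry the number 1 to 0.11 among those with the number 2.

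Tecpr1 (mm9 chromosome 5, 144956218 to 144984447) measured 64.0, 62.5 and 59.9 FPKM in Vehicle, 46.9, 56.5 and 54.3 FPKM in CON-BDEV, and 54.5, 48.3 and 49.9 FPKM in SE-BDEV. Every vesicle library lay below every Vehicle library. The log2 fold change was -0.28 in SE-BDEV (SE 0.0503, limma's adjusted p = 0.00835), which held in all 6 fits that left out a library, and the authors' deposited table gives q = 0.0245. In CON-BDEV it was -0.24 (limma's adjusted p = 0.0725), which did not pass. The other fusion genes, Stx17 and the tether Epg5, gave -0.09 and 0.02 in SE-BDEV by limma (adjusted p = 0.336 and 0.811).

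Pink1 (mm9 chromosome 4, 137869325 to 137882211) measured 6.77, 7.39 and 7.51 FPKM in Vehicle, 6.26, 6.40 and 6.10 FPKM in CON-BDEV, and 5.59, 5.76 and 6.56 FPKM in SE-BDEV. All vesicle libraries lay below Vehicle, with SE-BDEV replicate 3 close to Vehicle replicate 1. The log2 fold change was -0.24 in SE-BDEV (SE 0.0672, limma's adjusted p = 0.0484) and -0.18 in CON-BDEV (limma's adjusted p = 0.106). The SE-BDEV call ended without Vehicle replicate 1 (adjusted p by limma 0.0743), 2 (0.149) or 3 (0.147) or SE-BDEV replicate 1 (0.121) or 2 (0.126). It also ended with no filter (0.122), quantile normalization (0.0613) or no variance trend (0.0543) by limma's adjusted p, and the authors' deposited table gives q = 0.119.

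The library names carry a number, 1 or 2, of which the labels give no meaning, and each number holds libraries of all groups. Number 1 holds more Vehicle libraries than libraries of either vesicle group, and number 2 holds fewer. The number is thus partly confounded with vesicle exposure, and the main fits do not adjust for it. Within number 1 and within number 2 the log2 differences from Vehicle were 0.37 and 0.26 (CON-BDEV) and 0.26 and 0.28 (SE-BDEV) for Gabarapl1. They were 0.25 and 0.17 (CON-BDEV) and 0.19 and 0.20 (SE-BDEV) for Vmp1. For SE-BDEV they were -0.21 and -0.28 for Tecpr1, and -0.29 and -0.25 for Pink1. As the groups of these genes did not overlap, the direction within a number could not differ from the pooled one. Only the sizes are informative, and each rests on 1 library against 2 or 2 against 1. With this number as a block, both Vmp1 calls ended (limma's adjusted p = 0.0663 in CON-BDEV and 0.0657 in SE-BDEV).

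**Figure D4:**
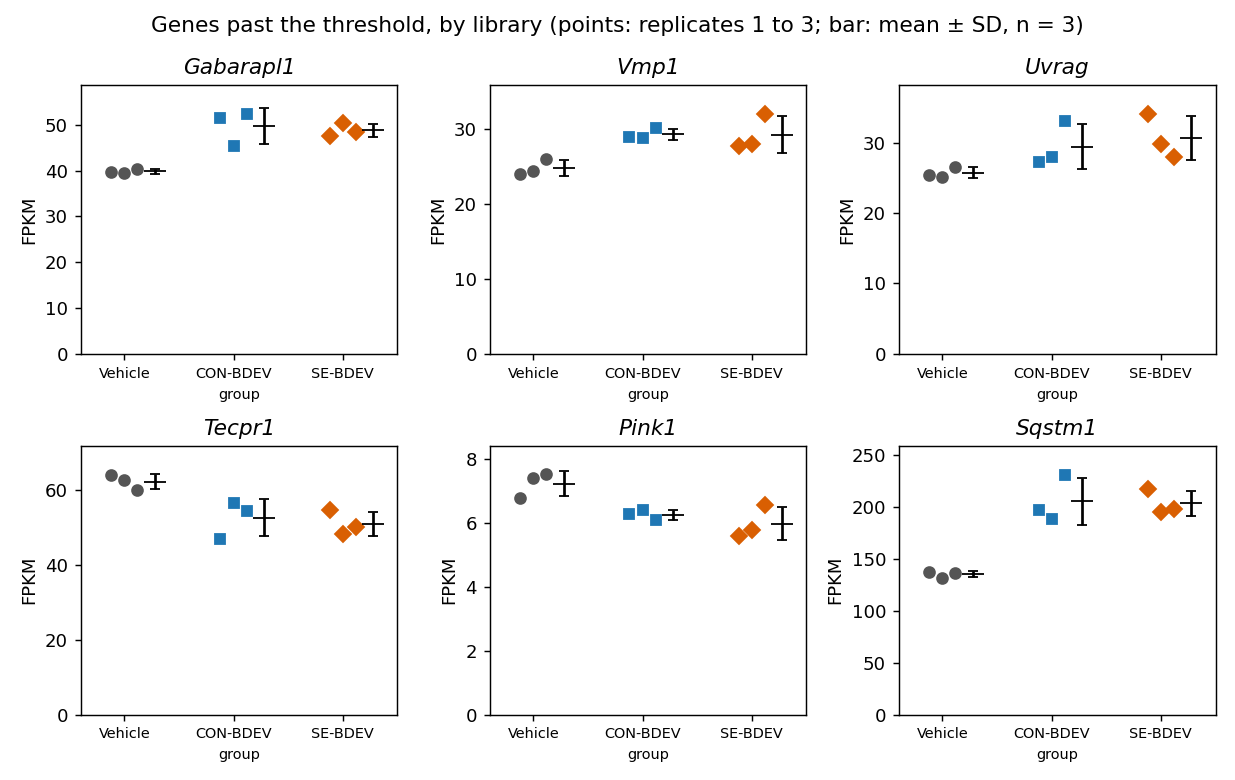
FPKM in each library (points, replicates 1 to 3 from left to right) with the mean ± SD (bars, n = 3) for the 5 members past the threshold in a comparison with Vehicle and for Sqstm1, on axes from 0. In each of the 6 genes the vesicle libraries do not overlap Vehicle, and Sqstm1 shows the widest separation (135.3 FPKM in Vehicle, 205.5 in CON-BDEV and 203.4 in SE-BDEV).

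Some other members came near the threshold without passing it. Atg12 and Atg5, whose products are joined to form part of the enzyme that lipidates ATG8 proteins, gave log2 fold changes of 0.24 and 0.19 in CON-BDEV (limma's adjusted p = 0.0840 and 0.0607). In SE-BDEV the values were 0.19 and 0.17 (limma's adjusted p = 0.0575 and 0.0641). Pik3r4, the regulatory subunit that anchors the lipid kinase, gave -0.21 in CON-BDEV (limma's adjusted p = 0.0806) and -0.16 in SE-BDEV (0.0838). At an unadjusted p under 0.05 by limma there were 13 of the 40 members in CON-BDEV, beside 2476 of 10535 genes (23.5%). In SE-BDEV there were 11 of the 40 members, beside 2886 of 10535 genes (27.4%). None of the 4 ATG4 proteases, the 4 cargo receptors, the 5 genes of the ULK1 kinase complex or the 6 conjugation genes passed in either comparison.

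SE-BDEV and CON-BDEV libraries did not differ in any member past the threshold, and neither did any of the 10532 genes tested by limma (0% called, 4.83% at an unadjusted p under 0.05, and 1 gene, no member, by limma without the variance trend). The only member at an unadjusted p under 0.05 was Gabarapl2, an ATG8 protein first known from Golgi transport. Its means were 69.6 ± 2.28 FPKM in CON-BDEV and 63.7 ± 0.999 FPKM in SE-BDEV (SD, n = 3 each), a log2 difference of -0.13 (limma's adjusted p = 0.991). In 2 members all SE-BDEV libraries lay above all CON-BDEV libraries and in 1 below, 7.5% beside 7.94% of all genes (2.74% above and 5.19% below). For Gabarapl1 the difference was -0.02 (95% interval -0.14 to 0.09), for Vmp1 -0.0045 (-0.13 to 0.12), for Uvrag 0.06 (-0.12 to 0.23), for Tecpr1 -0.04 (-0.19 to 0.11) and for Pink1 -0.06 (-0.20 to 0.08). All 40 intervals lay within a 1.2-fold difference of FPKM + 1 in either direction. In FPKM itself the bound is wider for members of low level, such as Ulk2. A gene that passed against Vehicle in SE-BDEV only, such as Tecpr1, is therefore not shown to differ between the vesicle groups.

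Further genes of the pathway, outside the machinery list, were Sqstm1, Bnip3, Mitf and others described next. Of 52 genes in lists of regulators, further core genes, receptors and fusion factors, 50 were tested. In CON-BDEV 2 rose and 2 fell (8%), and in SE-BDEV 7 rose and 4 fell (22%), beside 5.67% and 11.9% of all genes. The lists were chosen with earlier results of these data known, so these shares are a description. In CON-BDEV the median absolute log2 fold change was 0.0877 for these genes, 0.0912 for the members and 0.0774 for all genes tested. In SE-BDEV the values were 0.0838, 0.0612 and 0.0751 in the same order. None of the 50 passed between SE-BDEV and CON-BDEV.

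Sqstm1 (p62), the cargo receptor that is itself degraded by autophagy, rose in both vesicle groups. It measured 137.7, 131.8 and 136.4 FPKM in Vehicle, 197.4, 188.1 and 231.1 FPKM in CON-BDEV, and 217.1, 195.3 and 197.7 FPKM in SE-BDEV. All vesicle libraries lay far above Vehicle. The log2 fold change was 0.59 (SE 0.0695, limma's adjusted p = 0.00426) in CON-BDEV and 0.58 (SE 0.0457, limma's adjusted p = 0.000104) in SE-BDEV. Sqstm1 stood 1.91 times above Tax1bp1, the highest receptor among the members, by the means over 9 libraries (1.34 to 2.45).

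Bnip3, a mitophagy receptor induced by low oxygen, fell in both vesicle groups. It measured 38.9, 37.7 and 40.4 FPKM in Vehicle, 29.7, 25.4 and 25 FPKM in CON-BDEV, and 25.1, 25.6 and 27.1 FPKM in SE-BDEV, with no overlap. The log2 fold change was -0.53 in CON-BDEV (limma's adjusted p = 0.00548) and -0.57 in SE-BDEV (limma's adjusted p = 0.000105). Its paralog Bnip3l fell from a mean of 47.2 to 40.6 FPKM in SE-BDEV (log2 fold change -0.21, limma's adjusted p = 0.0198). The Bnip3l call ended without Vehicle replicate 2 (adjusted p by limma 0.0656) or 3 (0.0737) or SE-BDEV replicate 1 (0.0513) or 2 (0.0608), and with no filter (0.0528), and the authors' deposited table gives q = 0.145. In CON-BDEV the value was -0.16 (limma's adjusted p = 0.0655).

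Among the regulators Mitf, a transcription factor of the TFEB family, rose in both groups, from 8.17 FPKM in Vehicle to 10.9 in CON-BDEV (log2 fold change 0.37, limma's adjusted p = 0.0212) and 10.7 in SE-BDEV (0.35, limma's adjusted p = 0.00933). The CON-BDEV call ended without Vehicle replicate 1 (adjusted p by limma 0.0588), 2 (0.103) or 3 (0.0847) or CON-BDEV replicate 3 (0.0787), and with no filter (0.0795) or the library-name block (0.0549). Foxo3, a transcription factor of autophagy genes, fell in CON-BDEV from 11.8 to 9.39 FPKM (log2 fold change -0.30, limma's adjusted p = 0.0138), a call that ended without Vehicle replicate 1 (0.0760) or 2 (0.0830) or CON-BDEV replicate 3 (0.0596), and with no filter (0.0535) or all 9 libraries in 1 fit (0.0592). In SE-BDEV its value was -0.20 (limma's adjusted p = 0.187), with replicate 1 at 12.1 FPKM and the other libraries at 9.16 and 9.27. Prkaa2, a catalytic subunit of the energy sensor AMPK, rose in SE-BDEV from 17.5 to 21.6 FPKM (log2 fold change 0.29, limma's adjusted p = 0.00313), beside 0.20 in CON-BDEV (limma's adjusted p = 0.0611).

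Atg9b, the paralog of the lipid scramblase Atg9a, fell in SE-BDEV from 6.19 to 4.81 FPKM (log2 fold change -0.31, limma's adjusted p = 0.00933), while Atg9a itself gave 0.03 (limma's adjusted p = 0.669). In CON-BDEV Atg9b gave -0.30 (limma's adjusted p = 0.0630), with all its libraries below Vehicle, and the authors' deposited table gives q = 0.0326. Plekhm1, an adaptor that joins lysosomes to ATG8 proteins, rose in SE-BDEV from 47.1 to 54.8 FPKM (log2 fold change 0.21, limma's adjusted p = 0.0136), a call that ended without Vehicle replicate 1 (0.0666) or with all 9 libraries in 1 fit (0.0513), and the authors' deposited table gives q = 0.121. Tex264, a receptor for autophagy of the endoplasmic reticulum, rose from 26.3 to 30.0 FPKM (log2 fold change 0.19, limma's adjusted p = 0.0214), a call that ended without any of the 3 Vehicle libraries (0.0769, 0.0843 and 0.0604 without replicates 1, 2 and 3) or without SE-BDEV replicate 1 (0.0574), and the authors' deposited table gives q = 0.300. In CON-BDEV Plekhm1 gave 0.16 and Tex264 0.14 (limma's adjusted p = 0.156 and 0.132). None of these 4 genes (Prkaa2, Atg9b, Plekhm1 and Tex264) passed between SE-BDEV and CON-BDEV.

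Marker sums of other brain cell types moved with the vesicle groups. The 16 neuroblastoma and neuronal markers summed to 79.1 to 83.2 FPKM in Vehicle, 104.4 to 113.9 in CON-BDEV and 102.1 to 110.3 in SE-BDEV, of which Uchl1 made up most. The 12 astrocyte and oligodendrocyte markers, of which 3 had at least 1 FPKM (Aldoc, Mbp and Cnp) and 4 were at 0 in every library (Aqp4, Slc1a3, Mog and Mag), summed to 58.4 to 59.4, 49.5 to 51.4 and 47.8 to 51.8 FPKM in the same order. Aldoc, with a mean of 39.8 FPKM over the 9 libraries, made up most of the astrocyte and oligodendrocyte sum. The microglia and macrophage markers summed to 2897 to 3028, 2980 to 3202 and 2925 to 3320 FPKM. The part of these shifts in the results for the autophagy genes was not tested.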

How the data were processed

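Directional, polyA-selected libraries were made from RNA extracted with a ReliaPrep kit, per the labels' protocols. The authors used TopHat2, Cuffdiff and genome build mm9, per the submitters' processing notes, with versions not given in the sources used here. The authors deposited 1 FPKM value per gene and library, in separate tables of CON-BDEV with Vehicle and SE-BDEV with Vehicle. The authors' deposited Cuffdiff tables give, per the file headers, log2 fold changes, a test score, and a p-value and q-value per gene. The 3 Vehicle libraries are in both tables and differ by a constant factor each (1.00042, 1.00012 and 1.00078), so for joint values the SE-BDEV table was divided by their geometric mean. Genes listed with too many fragments to estimate were left out. Starts count from 1 (listed starts plus 1).

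From these values log2(FPKM + 1) was tested with limma 3.58.1 in R 4.3.3 (eBayes with a trend, 2-sided), over genes that averaged at least 1 FPKM in the fit, and adjusted by Benjamini and Hochberg over all of them with a threshold of 0.05. Each vesicle group was compared with Vehicle in its own table, and SE-BDEV with CON-BDEV in a fit of all 9 libraries. An exact permutation test of 3 against 3 cannot give p below 0.1, and the tests of single genes therefore use the spread that limma pools over genes. The fits were also run on simulated data with known changes and independent libraries, and no result given here rests on that run. The members and lists were chosen with earlier results of these data known. Values in every library are given for members past the threshold in any comparison, for the highest member of each role and for Sqstm1, and otherwise up to 8 called pathway genes per comparison are named by size of change. Any other gene was chosen after its values were seen. Depth was estimated from steps in values under 0.05 FPKM and 30 genes with at least 4000 nt of exons. Promoter sequences are from RefSeq and protein sequences were not used here.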

Additional observations from a re-analysis of the deposited data

How the results depend on the processing

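No member or other pathway gene past the threshold reversed direction under the alternatives run. The groups of each such gene did not overlap, so leaving out a library could not have reversed it. The lack of reversals therefore says little about how stable the calls are. None of these genes passed between SE-BDEV and CON-BDEV. The number of members changed in CON-BDEV (2) was 0 with no filter on low values, 1 with a library-name block, 1 by the authors' deposited Cuffdiff q-values, 4 with all 9 libraries in 1 fit, and 0 to 4 when a library was left out. In SE-BDEV (5) it was 2 with no filter, 2 without the trend in eBayes, 2 by the authors' q-values and 2 to 5 when a library was left out. Of the other pathway genes, 4 changed in CON-BDEV, 2 with no filter and 2 to 11 when a library was left out, and 11 changed in SE-BDEV, 5 by the authors' q-values and 6 to 12 when a library was left out. Over all genes limma's counts of 597 and 1253 were 112 and 726 with no filter, and 84 to 1067 and 501 to 1311 when a library was left out. The count was 275 in CON-BDEV with the library-name block and in SE-BDEV 562 by the authors' q-values and 830 with all 9 libraries in 1 fit. The cause of these shifts was not tested.

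With the replicate block, 2 members changed in CON-BDEV and 4 in SE-BDEV, 4 and 8 of the other pathway genes, and 364 and 1060 of all genes. Replicate numbers gave no sign of pairing: same-numbered libraries had correlations of -0.26 to 0.19 in 9 pairs (mean -0.04) after group means were removed, and 3 of 9 libraries were closest to their own number. Depth was estimated and not given, so no counting interval stands beside a value.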

Other observations

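Outside the rule for named genes, 3 further pathway genes passed against Vehicle in SE-BDEV and are named after their values were seen. Tfe3, a transcription factor of the TFEB family, measured 29.6, 29.9 and 30.0 FPKM in Vehicle and 33.1, 32.3 and 33.0 FPKM in SE-BDEV, with no overlap (log2 fold change 0.13, limma's adjusted p = 0.0460). Tbk1, the kinase that phosphorylates cargo receptors, had means of 19.4 ± 0.467 FPKM in Vehicle and 21.8 ± 0.607 FPKM in SE-BDEV (SD, n = 3 each), a log2 fold change of 0.16 (limma's adjusted p = 0.0421). Trp53inp2, a nuclear and autophagosomal partner of ATG8 proteins, had means of 15.5 ± 0.499 and 13.6 ± 0.418 FPKM (SD, n = 3 each), a log2 fold change of -0.18 (limma's adjusted p = 0.0326). When a library was left out, the Tfe3 call ended in all 6 fits (limma's adjusted p 0.0740 to 0.154), the Tbk1 call in all 6 (0.0570 to 0.148) and the Trp53inp2 call in all but the fit without SE-BDEV replicate 3 (0.0260, with up to 0.134 in the others). By limma's adjusted p the Tfe3 call also ended with the library-name block (0.0708), no variance trend (0.0689) and all 9 libraries in 1 fit (0.143). The Tbk1 call ended with these settings (0.077, 0.056 and 0.111), no filter (0.06) and quantile normalization (0.055). The Trp53inp2 call ended with no filter (0.0613) and the library-name block (0.0527). With the replicate block all 3 calls ended (limma's adjusted p = 0.0903, 0.0649 and 0.0556, in the order Tfe3, Tbk1 and Trp53inp2). In the same order the authors' deposited table gives q = 0.529, 0.378 and 0.232. In CON-BDEV their log2 fold changes were 0.17, 0.17 and -0.18 (limma's adjusted p = 0.106, 0.123 and 0.0678), none past the threshold. Tfeb itself gave -0.09 in CON-BDEV and -0.12 in SE-BDEV (limma's adjusted p = 0.581 and 0.185).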
